A study of Mus musculus with 34 samples.

Results

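The DEAD and DEAH box RNA helicase genes of the mouse were followed through the last stages of male germ cell development. Members were chosen by name: protein-coding genes of the mm10 build whose symbol is Ddx or Dhx followed by a number and, in some, a letter, with Ddx4 left out. The rule gave 52 of 21887 protein-coding genes, 50 of them on autosomes, 1 on the X and 1 on the Y chromosome. The rule itself uses no measured value, but it was set with earlier results of these data known.

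RNA helicases of this superfamily use ATP to open short RNA duplexes and to remodel complexes of RNA and protein. They act at nearly every step of an RNA's life, from splicing and nuclear export to ribosome assembly, translation and decay. In the testis they carry an added load, because late spermatids stop transcribing while histones give way to protamines, and mRNAs made earlier are stored and translated later. Ddx25, also called GRTH, is a testis helicase that exports and stores mRNAs and is needed for the completion of spermatid development in mice. Ddx5, also called p68, is a widely expressed helicase that serves in splicing and as a coregulator of transcription.

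The assay was paired-end ATAC-seq: the transposase Tn5 cuts and tags accessible DNA, and both ends of each fragment are read. The 34 libraries form 12 groups, 4 stages in each of 3 genetic backgrounds. The cKO mice are C57BL6 GCN5-/-, with floxed Gcn5 alleles deleted by Cre under the Stra8 promoter, which is active in germ cells entering meiosis. The WT mice are C57BL6 GCN5+/+. Both have 2 libraries per stage, and the labels used here state no age for them. The SV129 mice also have intact Gcn5. They were 8 to 12 weeks old, 11 per collection, and gave 4 libraries at each testis stage, from 2 biological replicates with 2 technical repeats, and 6 of sperm. The stages are meiotic cells (MS), round spermatids (RS) and elongating spermatids (ES), purified by sedimentation to at least 85%, and mature sperm of the cauda epididymis (Sp), washed with a somatic lysis buffer. Reactions held 100000 cells at MS and Sp and 200000 at RS and ES, with 2.5 to 5 units of Tn5 at every stage. Between MS or Sp and RS or ES, stage and cell number cannot be told apart. Gcn5, encoded by Kat2a, is a histone acetyltransferase. The lists hold sites and not transcripts, so the deletion itself was not checked here.

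Each group was deposited as 1 list of subnucleosome peaks and 1 list of nucleosome calls of 150 bp, 24 lists in all, with no value per library. Peaks are called open sites below, but they are not sites free of nucleosome calls. Of 300 promoter bases of Ddx25 in cKO at MS, 211 lay under a peak and 300 under calls. No error between replicates can therefore be had, and no difference below was tested. The differences between the SV129 and WT lists, both from mice with intact Gcn5, are given beside those between cKO and WT. The lists differ in length: 16087, 35822 and 33060 subnucleosome peaks in cKO, WT and SV129 at MS, 4075, 56480 and 29243 at RS, 473, 562 and 787 at ES, and 1127, 3024 and 10715 in sperm. The depth of the libraries is unknown. Of 12 germ cell marker genes, 8, 9 and 9 had a subnucleosome peak at an end at MS and 2, 11 and 11 at RS in cKO, WT and SV129, and 0, 1 and 1 in sperm. At most 2 of 10 Sertoli and Leydig markers, 1 of 8 epididymal markers and 0 of 8 blood markers had one in any list. Nucleosome calls lay at more of these markers. In cKO, WT and SV129, 3, 6 and 1 of the Sertoli and Leydig markers had a call at MS and 5, 4 and 6 at ES. Of the epididymal markers 2, 2 and 3 had a call at MS and 3, 4 and 6 at ES, and of the blood markers 0, 2 and 0 and then 2, 1 and 1. In a pooled fraction, a smaller share of cells with an open site and fewer cuts per cell cannot be told apart.

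A gene was called occupied in a list when an interval reached within 500 bp of one of its annotated ends. The promoters of 5 members are shown first, each as 300 bases of RefSeq sequence (GRCm38.p6), from 250 before to 50 after an annotated start. Capitals mark the bases that lie inside a WT round spermatid subnucleosome peak. Ddx25 and Ddx5 are the 2 members followed in most detail. Ddx17, a close relative of Ddx5, had the longest open stretch in WT round spermatids, Ddx54 was occupied in more lists than any other member, and Ddx58 was occupied in none. They come from chr9:35558421-35558720, chr11:106789136-106789435 and chr15:79546692-79546991, all on the minus strand, chr5:120612880-120613179 on the plus strand, and chr4:40239776-40240075 on the minus strand.
Ddx25: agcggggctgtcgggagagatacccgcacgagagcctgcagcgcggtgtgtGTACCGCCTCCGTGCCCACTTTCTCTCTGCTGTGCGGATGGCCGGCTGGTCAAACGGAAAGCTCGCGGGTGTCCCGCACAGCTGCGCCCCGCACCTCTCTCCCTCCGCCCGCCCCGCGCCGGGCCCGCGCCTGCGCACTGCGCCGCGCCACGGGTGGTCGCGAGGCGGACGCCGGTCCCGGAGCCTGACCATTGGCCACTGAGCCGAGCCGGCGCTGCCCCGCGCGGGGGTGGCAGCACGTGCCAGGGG
Ddx5: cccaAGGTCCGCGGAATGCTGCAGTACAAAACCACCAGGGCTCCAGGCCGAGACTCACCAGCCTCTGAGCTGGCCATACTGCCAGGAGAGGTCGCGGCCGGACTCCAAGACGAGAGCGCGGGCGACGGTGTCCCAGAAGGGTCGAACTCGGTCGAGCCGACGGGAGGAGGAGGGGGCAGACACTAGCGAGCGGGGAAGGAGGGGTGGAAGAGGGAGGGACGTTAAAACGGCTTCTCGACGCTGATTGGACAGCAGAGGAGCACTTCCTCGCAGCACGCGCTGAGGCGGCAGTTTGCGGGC
Ddx17: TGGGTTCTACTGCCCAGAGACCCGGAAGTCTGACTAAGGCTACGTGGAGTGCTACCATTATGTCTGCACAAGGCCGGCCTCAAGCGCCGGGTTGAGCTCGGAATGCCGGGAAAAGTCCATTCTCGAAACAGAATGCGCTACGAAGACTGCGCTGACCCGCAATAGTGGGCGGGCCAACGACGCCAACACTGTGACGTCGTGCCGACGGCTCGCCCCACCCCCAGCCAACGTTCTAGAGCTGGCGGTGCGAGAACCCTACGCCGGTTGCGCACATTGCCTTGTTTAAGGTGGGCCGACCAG
Ddx54: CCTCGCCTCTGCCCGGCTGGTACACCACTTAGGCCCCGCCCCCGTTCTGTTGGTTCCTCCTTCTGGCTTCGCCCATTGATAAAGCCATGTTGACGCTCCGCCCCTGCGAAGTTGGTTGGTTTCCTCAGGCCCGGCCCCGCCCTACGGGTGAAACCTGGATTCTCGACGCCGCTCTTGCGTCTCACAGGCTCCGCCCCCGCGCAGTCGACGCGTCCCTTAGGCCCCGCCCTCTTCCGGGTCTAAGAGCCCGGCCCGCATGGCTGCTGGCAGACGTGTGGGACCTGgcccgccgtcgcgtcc
Ddx58: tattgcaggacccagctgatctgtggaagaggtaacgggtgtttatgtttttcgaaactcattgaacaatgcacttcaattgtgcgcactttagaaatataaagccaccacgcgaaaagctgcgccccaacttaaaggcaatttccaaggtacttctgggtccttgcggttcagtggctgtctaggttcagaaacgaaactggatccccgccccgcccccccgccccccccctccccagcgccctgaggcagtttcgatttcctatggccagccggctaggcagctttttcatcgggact

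The peak covered 249 of the 300 bases in Ddx25, 296 in Ddx5, 300 in Ddx17, 284 in Ddx54 and 0 in Ddx58. The Ddx25 promoter is 75% G and C and holds 41 CpG dinucleotides, the most among the 46 member promoters that RefSeq lists here. The Ddx58 promoter holds 15 CpG and is 53.3% G and C. Letters were searched on both strands. The Ddx25 promoter holds GGGCGG, the core of an Sp1 site, on the other strand, where it reads CCGCCC in the printed letters, at 95 and 91 bases before the start. These 2 share 2 bases. It also holds CCAAT on the other strand 9 bases before the start, and CACGTG 37 bases after it. The Ddx5 promoter also holds CCAAT on the other strand, 7 bases before the start. The Ddx54 promoter holds GGGCGG 5 times, all on the other strand and inside the peak. The Ddx58 promoter holds it 3 times, also on the other strand, with no peak over it.

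Before elongation nearly every helicase gene was open in mice with intact Gcn5. At MS, 38 of 52 members had a subnucleosome peak at an end in cKO, 46 in WT and 44 in SV129. Among all protein-coding genes the shares were 33.1%, 47.5% and 44.9%. At RS the counts were 12 in cKO, 45 in WT and 43 in SV129, against 11.2%, 46.5% and 40.1% of all genes. As shares of the members, the round spermatid counts are 23.1% (Wilson 95% interval 13.7% to 36.1%) in cKO, 86.5% (74.7% to 93.3%) in WT and 82.7% (70.3% to 90.6%) in SV129. These intervals cover counting error only. They treat the members as independent draws, although the 52 are all the genes that the rule gave.

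At ES no member had a peak in cKO, WT or SV129, where 0.0959%, 0.0457% and 0.0868% of all genes had one. In sperm 2 members had one in cKO, 14 in WT and 24 in SV129, against 3.34%, 8.00% and 21.2% of all genes. The WT and SV129 counts of sperm thus differ from each other by nearly as much as those of cKO and WT. At MS and RS the member counts of WT and SV129 lie within 2 genes of each other.

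**Figure D1:**
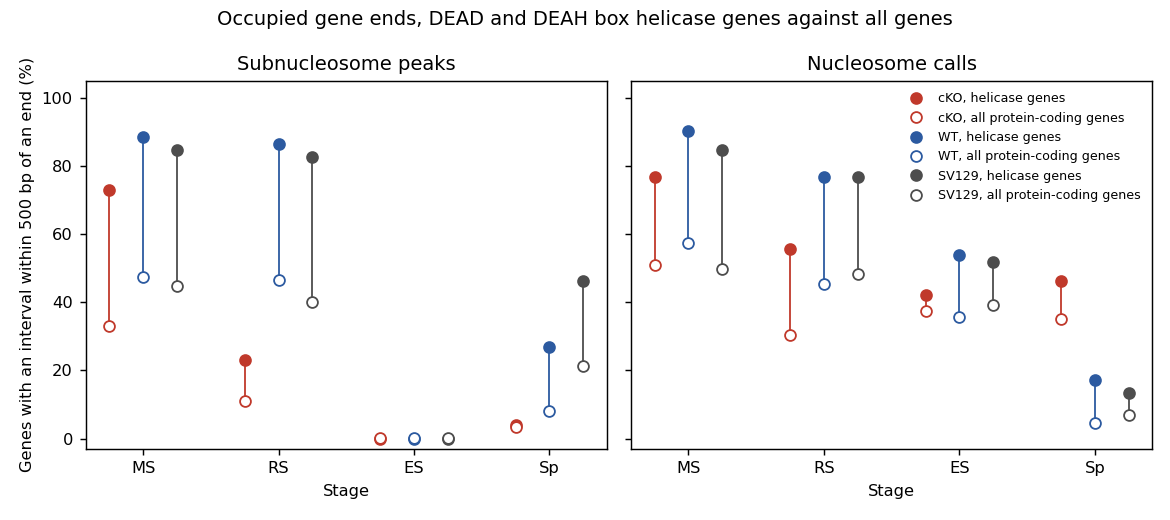
Share of genes, in percent, with an interval within 500 bp of an end, by stage (x axis) for subnucleosome peaks (left) and nucleosome calls (right). Filled points are the 52 helicase genes and open points all 21887 protein-coding genes in the same list, joined by a line, with cKO, WT and SV129 side by side at each stage. Filled points lie above open ones at MS and RS in every list, 23.1% against 11.2% for subnucleosome peaks of cKO round spermatids, and subnucleosome shares are near 0 at ES.

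The open sites of the helicase genes were at their starts. Strand is known for 46 members. The start end is the outer edge of the gene record and not always an annotated start. The only annotated starts of Ddx56 and Ddx3x lie 2057 and 526 bp inside it, and those of Ddx50 7546 and 9011 bp inside. Among the members of known strand, 35, 42 and 40 had a peak at the start end at MS in cKO, WT and SV129, 11, 40 and 38 at RS, and 0, 11 and 20 in sperm. None had a peak at the other end in any list. Over the 17492 protein-coding genes of known strand, WT at MS had 8244 genes with a peak at the start end and 488 at the other. The centres of the peaks lay mostly from 100 bp before to 100 bp after the edge of the gene record at the start end. At RS 18 centres fell in the last 100 bp before it and 13 in the first 100 bp after it in WT, 19 and 14 in SV129, and 7 and 0 in cKO.

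**Figure D2:**
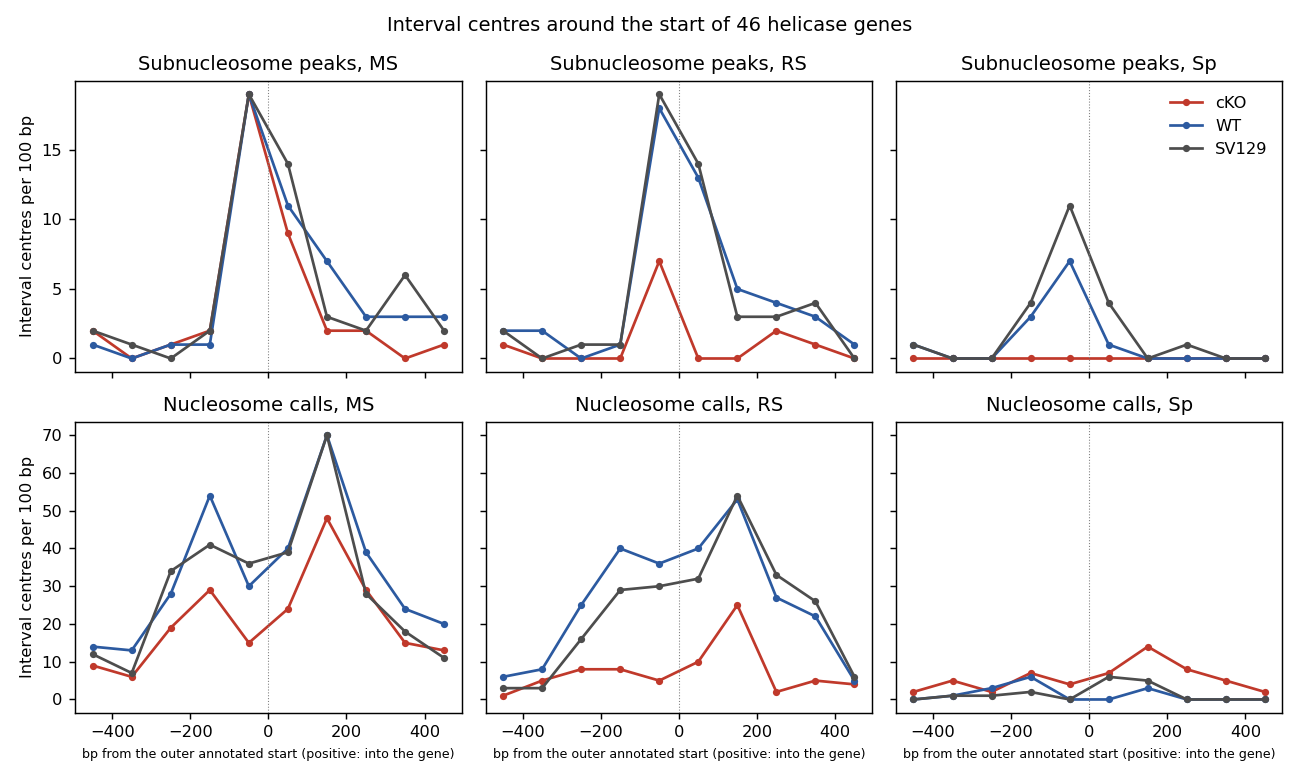
Number of interval centres per 100 bp bin (y axis) by distance from the start end of 46 helicase genes (x axis, in bp, positive into the gene). Subnucleosome peaks (top) and nucleosome calls (bottom) are shown at MS, RS and Sp. The start end, labelled outer annotated start on the axis, is the edge of the gene record, and in some genes every annotated start lies further inside. Lines are cKO (red), WT (blue) and SV129 (grey). At MS all 3 lists have 19 peak centres in the 100 bp before this edge, whereas at RS cKO has 7, WT 18 and SV129 19.

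Ddx25 lies at chr9:35541848-35558470 on the minus strand, and its start is within reach of Pus3, which encodes a pseudouridine synthase, so that the end window belongs to both genes. At MS, 245 bp around the Ddx25 start were covered by a subnucleosome peak in cKO, 355 bp in WT and 322 bp in SV129. At RS the covered length was 0 bp in cKO, 390 bp in WT and 274 bp in SV129. None of the 6 lists of ES and sperm has a peak there. The WT round spermatid peak, at chr9:35558280-35558669, covers the start and most of the promoter printed above.

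Nucleosome calls at Ddx25 were spread differently over the backgrounds. They covered 415, 210 and 300 bp of the end windows in cKO, WT and SV129 at MS. At RS they covered 0 bp in cKO, 340 bp in WT and 0 bp in SV129, so the intact lists differ from each other here. At ES only the SV129 list has calls, over 432 bp, and in sperm only the cKO list, over 74 bp at the end away from the start.

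Ddx5 lies at chr11:106780355-106789185, also on the minus strand, and shares its end windows with Cep95 and Polg2. Subnucleosome peaks covered 222, 659 and 587 bp at MS in cKO, WT and SV129. At RS they covered 0 bp in cKO, 663 bp in WT and 301 bp in SV129, and in sperm 0 bp in cKO, 129 bp in WT and 0 bp in SV129. Only Ddx17, with 778 bp, had a longer covered length than Ddx5 in WT round spermatids.

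RefSeq annotates 3 starts for Ddx5, the inner ones 278 and 691 bp inside the outer one. At MS each background had 2 separate open sites, the inner one partly beyond the 500 bp counted above. In cKO they were 207 bp around the outer start and 100 bp centred 535 bp inside it, with deposited scores of 8.32 and 6.51. In WT they were 442 and 412 bp long with scores of 38.3 and 26.1, and in SV129 335 and 436 bp long. Both sites were present in WT and SV129 round spermatids, and neither in cKO round spermatids. Nucleosome calls covered 460, 730 and 381 bp at MS, 0, 600 and 351 bp at RS, none at ES, and 212, 150 and 0 bp in sperm, again in cKO, WT and SV129.

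**Figure D3:**
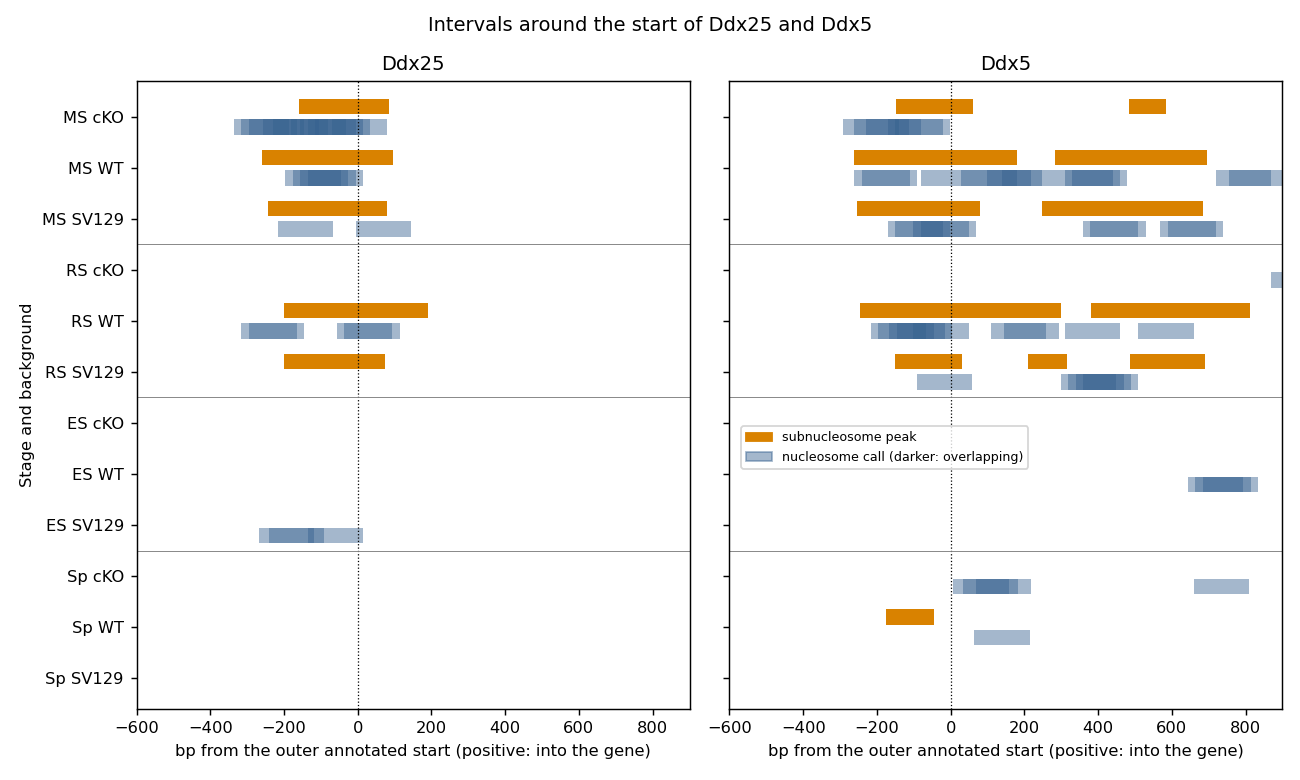
Intervals within reach of the outer annotated start of Ddx25 (left) and Ddx5 (right), with the distance from the start in bp on the x axis (positive into the gene) and 1 row per stage and background. Orange bars are subnucleosome peaks and blue bars nucleosome calls, darker where calls overlap. The cKO round spermatid row has no peak at either gene, whereas the WT row has 390 bp at Ddx25 and 663 bp within the end windows of Ddx5.

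At MS the cKO list kept most helicase genes, with shorter peaks. Of 46 members with a peak in WT, 8 had none in cKO, against 30.8% of all genes with a WT peak. Of the same 46, 2 had none in SV129, against 9.58% of all genes. No member had a peak in cKO or in SV129 without one in WT, where 0.375% and 3.72% of all genes without a WT peak had one. The 38 members with a peak in both cKO and WT had a median covered length of 174 bp in cKO and 360 bp in WT, shorter in cKO for all 38. Among all genes with a peak in both lists the cKO length was shorter in 97.4%. The median ratio of cKO to WT was 0.477 for the members and 0.565 for all such genes. In SV129 and WT the same comparison gave 33 of 44 members shorter in SV129 (75%), with a median ratio of 0.855. Over all genes it gave 81.5% and 0.817.

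At RS most helicase genes with an open start in WT had none in cKO, in lists of 4075 peaks in cKO and 56480 in WT. With the WT list limited to its 4075 highest-scored peaks the direction turned, with 12 members in cKO and 7 in WT. In the full lists, of 45 members with a WT peak, 33 had none in cKO, against 76.0% of all genes. For SV129 the count was 2 of 45, against 15.9% of all genes. The members' share without a cKO peak, 73.3%, is thus near that of all genes. The 12 members with a peak in both had 129 bp covered in cKO and 345 bp in WT, at the median, shorter in cKO in all 12. Among all genes with a peak in both, 99.8% were shorter in cKO, with a median ratio of 0.318, against 0.365 for the members.

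The members with the longest WT cover and none in cKO were Ddx5, Dhx9, Ddx20, Ddx43 and Dhx15. Dhx9, which unwinds DNA, RNA and hybrids of both and acts in transcription and translation, had 0, 648 and 441 bp covered at RS in cKO, WT and SV129. Ddx20, also called Gemin3, a part of the SMN complex that assembles splicing ribonucleoproteins, had 0, 641 and 563 bp. Ddx43, known in human tumours as the cancer and testis antigen HAGE, had 0, 582 and 291 bp. Dhx15, which takes apart the spent spliceosome, had 0, 575 and 408 bp. In SV129 the lengths of these 5 ran from 291 to 563 bp.

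In the cKO round spermatid list the longest cover at the ends was at Ddx39a, Ddx24, Ddx42, Ddx17 and Dhx57. Ddx39a, an mRNA export factor and close relative of Ddx39b, had 211, 288 and 449 bp covered in cKO, WT and SV129. Ddx24, a nucleolar helicase of ribosome assembly, had 209, 315 and 361 bp. Ddx42, a component of the early spliceosome, had 163, 539 and 419 bp. Ddx17 had 158, 778 and 476 bp, and Dhx57 158, 343 and 270 bp. The other 7, Ddx47, Ddx10, Ddx31, Dhx40, Ddx54, Ddx1 and Ddx18, had from 78 to 132 bp in cKO. Each of the 12 was shorter in cKO than in both intact lists. A cKO peak at an end was not always over the promoter. Those of Ddx42, Dhx57 and Ddx54, centred -415, 230 and 324 bp from the start end (positive into the gene), lay outside their outermost RefSeq promoters. At Ddx42 the WT and SV129 peaks centred 44 and 34 bp inside had no cKO counterpart. The Ddx54 promoter had 0, 284 and 257 bases covered in cKO, WT and SV129.

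The deposited score of WT peaks differed between these groups of genes. The 12 members with a peak also in cKO round spermatids had a median highest WT score of 49.1 (36.1 to 79.4), and the 33 without one 32.2 (12.6 to 71.5), on an unstated scale. At MS the medians were 41.4 in the 38 members with a cKO peak and 23.99 in the 8 without, and in sperm 7.80 in 2 and 9.78 in 12. The ranges overlap at each stage. The median over all single WT peaks, near genes or not, was 22.1 at MS, 17.0 at RS and 7.47 in sperm. It is not a highest score per gene, so the member medians cannot be set directly against it. SV129 peaks carry a score of 0 throughout and could not be compared.

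**Figure D4:**
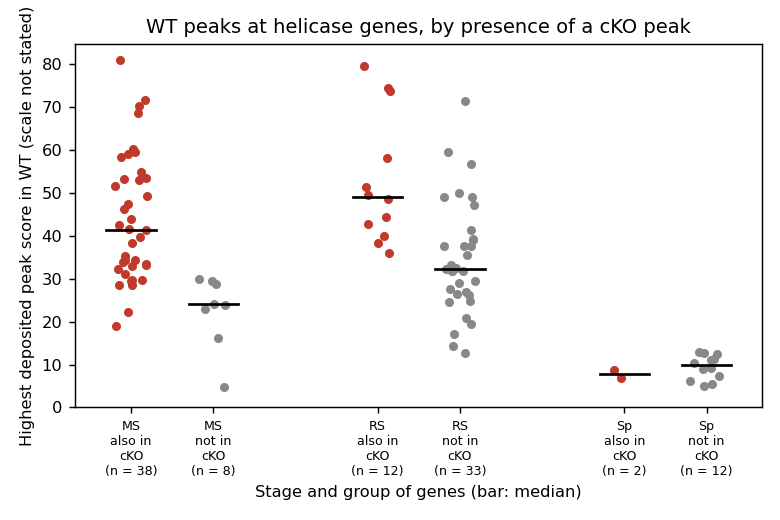
Highest deposited score of a WT subnucleosome peak at each helicase gene (y axis, scale not stated), by stage and by whether the gene also had a peak in cKO (red) or had none there (grey). Each point is 1 gene and the bar is the median, 49.1 against 32.2 at RS and 41.4 against 23.99 at MS.

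The length of the lists moves with these counts. When the WT round spermatid list was limited to its 4075 highest-scored peaks, the length of the cKO list, 12 members had a peak in cKO and 7 in WT, against 11.2% and 9.13% of all genes. Limited in the same way, MS gave 38 members in cKO and 39 in WT, and sperm 2 in cKO and 9 in WT. The cKO lists were the shorter ones and kept their 33.1% and 3.34% of all genes. The shares of all genes in the shortened WT lists of MS and sperm are not given here. The part of list length in the round spermatid difference was not tested.

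By role, all 11 helicases of splicing had a subnucleosome peak at MS and at RS in WT and SV129. In cKO 10 had one at MS and 2 at RS. At ES none had one in any background, and in sperm 1 had one in cKO and 8 in each intact list. The shares of all genes are those of the same lists given above, such as 11.2% in cKO and 46.5% in WT at RS. Of the 15 helicases of ribosome assembly, 13, 14 and 14 had a peak at MS in cKO, WT and SV129, 6, 14 and 14 at RS and 0, 4 and 8 in sperm. The 1 of them without any peak at its ends was Ddx56, described below. These groups differ in size and were not compared by a test.

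Of the 5 helicases of mRNA export, 3, 5 and 5 had a peak at MS, 1, 5 and 5 at RS and 1, 1 and 1 in sperm in cKO, WT and SV129. Ddx39b, known as UAP56, which loads export factors on spliced mRNA, had 0, 160 and 177 bp covered at RS. Ddx19a and Ddx19b, relatives of the yeast nuclear pore helicase Dbp5, had 0, 214 and 269 bp and 0, 332 and 148 bp. Of the 7 of translation and mRNA turnover, 5, 6 and 5 had a peak at MS and 1, 5 and 4 at RS. Dhx36, which resolves G-quadruplexes, had 0, 438 and 424 bp at RS, and Dhx29, which helps the ribosome scan structured leaders, 0, 451 and 472 bp. The mitochondrial helicases Dhx30 and Ddx28 both had a peak at MS in every background and none in cKO at RS, where Dhx30 had 485 bp in WT and 0 bp in SV129.

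Of the role groups, the 3 antiviral helicases had the fewest subnucleosome peaks. Ddx58, known as RIG-I, the sensor of viral RNA ends, had no interval of either class at its ends in any of the 24 lists. Its promoter is not poor in CpG, with an observed to expected ratio of 0.714. Ddx60, which is induced by interferon, had no subnucleosome peak at an end, and its promoter had the lowest ratio of the 46, 0.390. Dhx58, known as LGP2, had a peak only at RS, with 0, 83 and 168 bp covered in cKO, WT and SV129. Dhx58 neighbours Kat2a, the deleted gene, but these peaks lie at the end away from it.

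**Figure D5:**
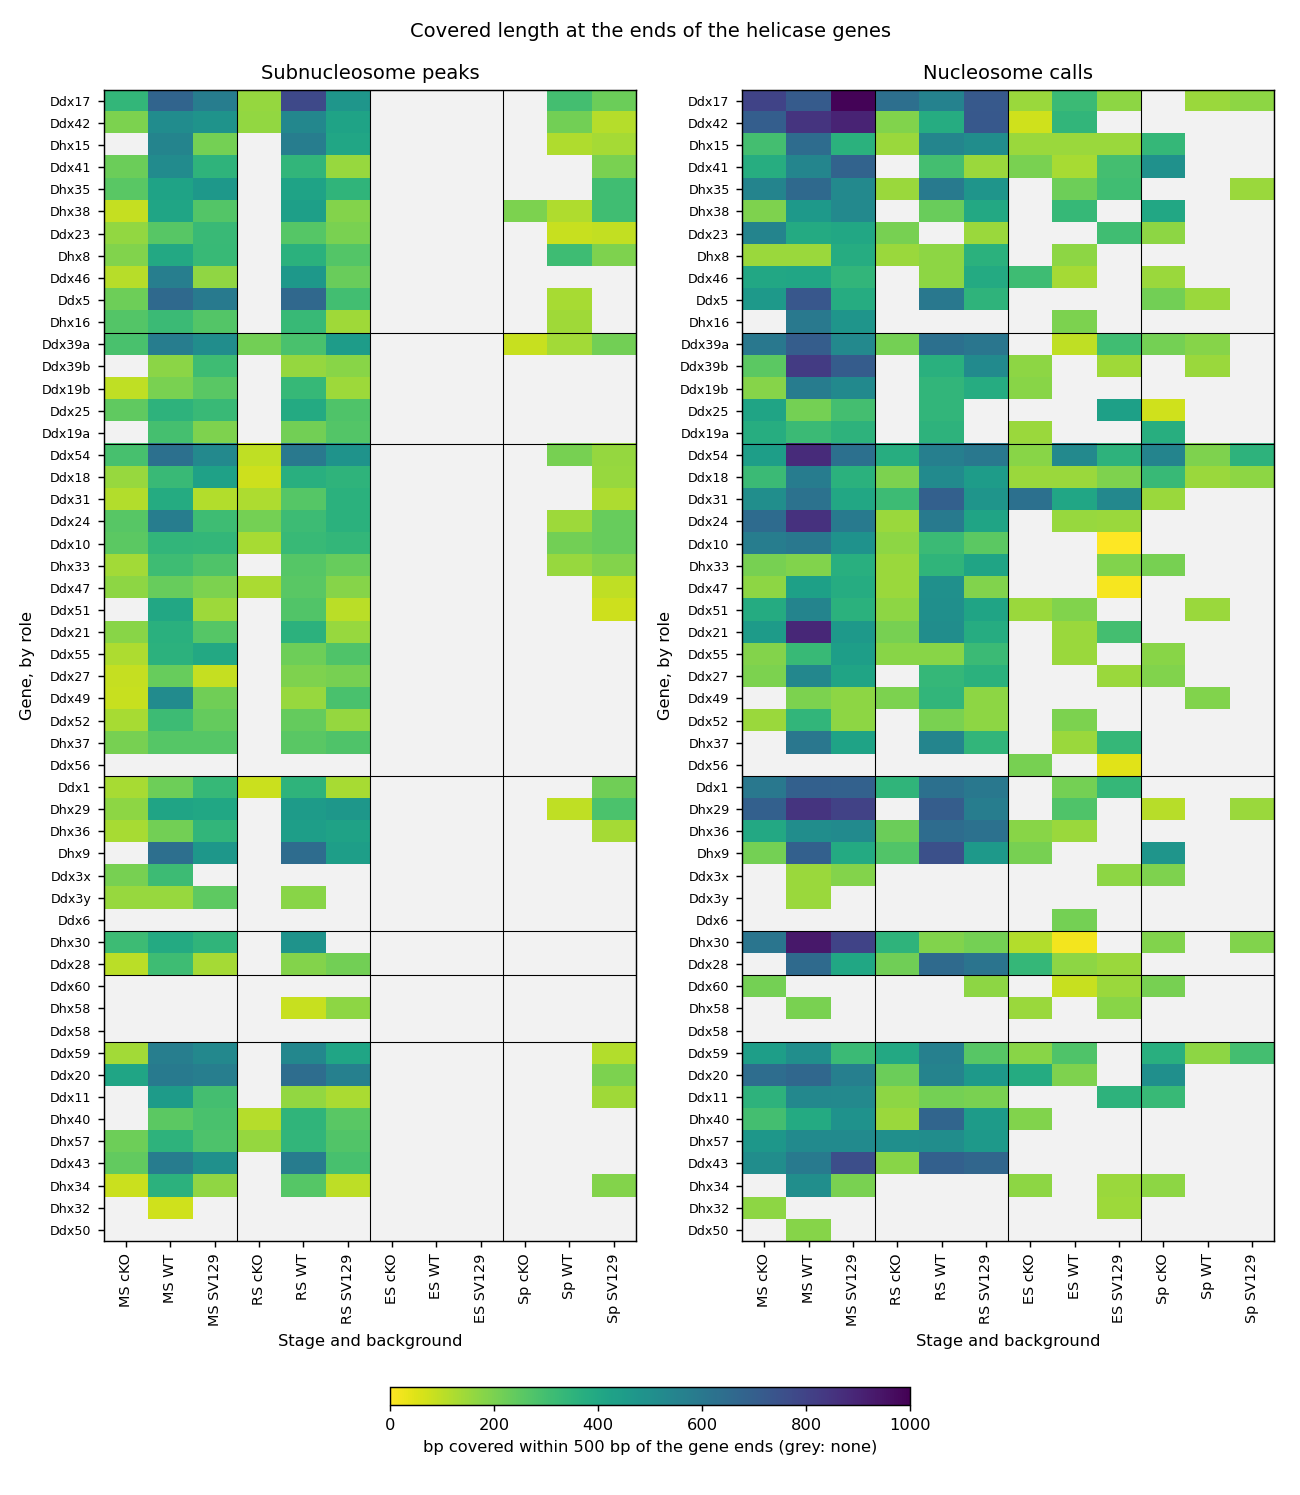
Length covered within 500 bp of the gene ends (colour, in bp, grey for none) for each of the 52 helicase genes (rows) in each list (columns, by stage and then cKO, WT and SV129), for subnucleosome peaks (left) and nucleosome calls (right). Rows are in the order splicing, mRNA export, ribosome assembly, translation and mRNA turnover, mitochondrial, antiviral and other, divided by lines. The ES columns of subnucleosome peaks are empty, and the cKO column at RS has colour in 12 rows, against 45 in WT and 43 in SV129.

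The sex chromosomes carry a pair of members, Ddx3x, which helps translation initiation on structured mRNAs, and its Y-linked paralog Ddx3y. Ddx3x had 207, 314 and 0 bp covered by subnucleosome peaks at MS in cKO, WT and SV129, and none at RS or in sperm in any list. Ddx3y had 153, 156 and 249 bp at MS and 0, 176 and 0 bp at RS. In meiosis both sex chromosomes are condensed and silenced in a separate body.

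Genes open in sperm were mostly open before elongation, the helicases and all genes alike. All 14 members with a peak in WT sperm, and all 24 in SV129 sperm, had one in the MS and RS lists of the same background. Among all genes with a WT sperm peak, 96.6% also had one at MS and 95.5% at RS, and in SV129 92.4% and 90%. At 12 members a peak was present at MS, RS and Sp in both WT and SV129, against 6.11% of all genes. They were Dhx15, Ddx17, Ddx23, Ddx42, Dhx8 and Dhx38 of the spliceosome, Ddx54, Ddx10, Ddx24 and Dhx33 of ribosome assembly, Ddx39a and Dhx29.

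Sperm peaks were short. Ddx17 had 0, 298 and 225 bp covered in cKO, WT and SV129, and Dhx8, which releases mRNA from the spliceosome, 0, 311 and 192 bp. Only Ddx39a, with 85, 137 and 213 bp, and Dhx38, with 199, 118 and 307 bp, had a peak in cKO sperm. Of 14 members with a WT sperm peak, 12 had none in cKO, against 80.2% of all genes. In SV129, 2 of the 14 had none, against 19.7% of all genes, and 12 members had a peak in SV129 sperm alone of the intact pair, out of 38 without one in WT, where 16.1% of all such genes had one.

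Nucleosome calls at the helicase genes took another course. At MS 40, 47 and 44 members had a call at an end in cKO, WT and SV129, against 51.1%, 57.3% and 49.7% of all genes. At RS they were 29, 40 and 40, against 30.3%, 45.5% and 48.4%. At ES they were 22, 28 and 27, against 37.5%, 35.6% and 39.2%. At this stage no member had a subnucleosome peak. The members' calls at MS lay at the start end in 36, 41 and 40 of the 46 genes of known strand, and at the other end in 3, 8 and 1. Over all 17492 genes of known strand the start end had calls in 48.6%, 54.9% and 48.6%, and the other end in 8.08%, 10.4% and 4.76%. At ES the start end of the members had calls in 13, 20 and 13 genes (28.3%, 43.5% and 28.3%), against 27.8%, 25.3% and 28.7% of all genes, so that cKO and SV129 were near the share of all genes. The other end had calls in 9, 6 and 15 members (19.6%, 13.0% and 32.6%), against 14.8%, 14.6% and 17.4%.

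Around the start end the calls at MS and RS formed a ridge just inside the gene. The bin from 100 to 200 bp inside held 48, 70 and 70 call centres at MS and 25, 53 and 54 at RS in cKO, WT and SV129, the highest count of any bin in all 6 lists. Calls overlap one another, so these are not counts of nucleosomes. Ddx17 had 633, 555 and 720 bp covered by calls at RS, the longest of any member in cKO. Of the 28 members with calls in both cKO and WT at RS, 26 were shorter in cKO, with a median ratio of 0.419, and over all genes 82.0% were shorter, with 0.529.

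Of 40 members with a call in WT round spermatids, 12 had none in cKO, against 49.6% of all genes. In SV129, 2 of the 40 had none, against 14.0%. At MS 9 of 47 had none in cKO, against 20.6%, and 3 in SV129, against 17.8%. At ES 14 of 28 had none in cKO, against 53.4%, and likewise 14 of 28 in SV129, against 51.1%. The cKO difference at ES is thus the same size as that between the intact backgrounds.

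In sperm the order of the backgrounds changed. A call lay at the ends of 24 members in cKO, 9 in WT and 7 in SV129, against 35.2%, 4.62% and 6.78% of all genes. Of the 9 in WT, 4 had none in cKO, against 22.9% of all genes, and 5 had none in SV129, against 58.7%. Of 43 members with no call in WT sperm, 19 had one in cKO, against 33.2% of all such genes, and 3 in SV129, against 5.11%. The sperm lists of cKO, WT and SV129 are of very unequal length, 347951, 8628 and 13615 calls. The part of that in the member counts was not tested. Of 12 germ cell markers, 2 had a call in cKO sperm and 0 in WT or SV129 sperm. Of 10 Sertoli and Leydig markers it was 2, 0 and 0, of 8 blood markers 1, 0 and 0, and of 8 epididymal markers 0, 1 and 0. At 17 members the call was in cKO sperm and in neither intact list, against 27.8% of all genes. Of the 17, 15 had a call in cKO MS, 16 in WT MS and 16 in SV129 MS, near the shares of all 52 members, 76.9%, 90.4% and 84.6%. Of all genes with a call in cKO sperm alone, 68.2%, 75.3% and 67.9% had one in these lists.

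Dhx9 had 477 bp covered in cKO sperm, Ddx20 502 bp and Ddx41, a spliceosomal helicase, 495 bp, with none in WT or SV129. These 3 were named after their values were seen. Calls were present in both intact sperm lists at 4 members. Ddx54 had 550, 195 and 355 bp covered in cKO, WT and SV129. Ddx59 had 368, 170 and 300 bp, and Ddx18, a nucleolar helicase, 327, 150 and 170 bp. Ddx17 had 0, 150 and 170 bp, the only one of the 4 with none in cKO.

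Some members had peaks inside the gene and not at its ends. This held for Ddx50, Ddx56, Ddx6, Ddx58 and Ddx60, the 5 members with no subnucleosome peak at an outer end. The peaks inside Ddx58 were in MS of WT and SV129 and those inside Ddx60 in RS of WT and SV129, outside their RefSeq promoters. The sequence tables used here hold no Ddx6 promoter. The outermost RefSeq start of Ddx50, a nucleolar helicase next to its paralog Ddx21, lies 7546 bp inside the edge of the gene record, outside the end windows. Its promoter was covered over 279, 300 and 300 bp at MS in cKO, WT and SV129, 218, 300 and 293 bp at RS and 124, 79 and 248 bp in sperm. Ddx50 thus had an open promoter in all 3 cKO lists outside ES. At Ddx56, a nucleolar helicase, the promoter of its only RefSeq start, 2057 bp inside, was open over 214, 283 and 266 bp at MS. At RS it was open over 0, 288 and 233 bp, and in sperm over 0, 79 and 75 bp. At Dhx32 the promoter 5982 bp inside was open over 236, 251 and 219 bp at MS. At RS it was open over 0, 211 and 205 bp, and it had no peak in any sperm list. Neither gene thus had an open promoter in cKO round spermatids. Counting any RefSeq promoter instead of the ends gave 36, 43 and 41 of 46 members at MS in cKO, WT and SV129, against 33.7%, 48.6% and 45.2% of all genes with a promoter. At RS it gave 9, 42 and 41, against 11.8%, 47.8% and 41.3%. In sperm it gave 1, 13 and 21, against 3.44%, 8.27% and 21.8%. The member share in cKO sperm was then 2.17%, below that of all genes. However, this count leaves out Ddx39a and Dhx38, which have no RefSeq promoter entry. They were the only members with a cKO sperm peak at an end, where the share was 3.85%, against 3.34% of all genes. The promoter measure, and the genes named with it, were chosen after the values at the ends were seen.

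The member promoters are rich in CpG. The observed to expected ratio of CpG had a median of 0.903 over the 46 members and 0.577 over all 17492 genes with a RefSeq promoter, and 43 members, 93.5%, were at or above 0.6, against 48.4% of all. Among promoters at or above 0.6, WT had a peak at the ends of 40 of 43 members at MS and 39 at RS, against 77.0% and 74.2% of all such genes. In cKO it was 34 of 43 at MS, against 56.8%, and 10 at RS, against 21.4%. In SV129 it was 39 at MS, against 73.4%, and 37 at RS, against 66.9%. The gap between members and all genes was smaller within this class than over all promoters in each of these lists. For nucleosome calls in cKO sperm it turned, with 19 of 43 members, 44.2%, against 50.7% of such genes.

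Short motifs were counted in the same 300 bases on both strands. CCGGAA, the core bound by ETS factors, was in 20 of 46 member promoters (43.5%) and 19.1% of all. TGACG, found in CRE sites, was in 24 (52.2%) and 23.8%. GGGCGG was in 29 (63.0%) and 46.3%, CCAAT in 22 (47.8%) and 39.2%, ATGGCG, part of a YY1 site, in 10 (21.7%) and 11.2%, and the NRF1 palindrome, searched with 1 free base, in 8 (17.4%) and 6.66%. CACGTG, the E-box core, was in 4 (8.70%) and 7.91%, and TATAAA in 2 (4.35%) and 13.3%. CpG-rich promoters hold more of the motifs that contain CG, the motifs can overlap one another, and a match is not a bound site.

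RNA helicase genes named otherwise were counted in the same lists, with no test of a difference from the members. Among them, Znfx1 and Mtrex share an end window with the members Ddx27 and Dhx29, so an interval there can count in both sets. Of 20 found in the gene table, such as Eif4a1, Upf1 and Dicer1, 13, 15 and 15 had a subnucleosome peak at MS in cKO, WT and SV129, 5, 15 and 14 at RS, 0 in all 3 at ES, and 0, 5 and 10 in sperm. Nucleosome calls were at 14, 19 and 17 of them at MS, 7, 14 and 14 at RS, 6, 11 and 7 at ES and 6, 0 and 2 in sperm. At RS in cKO the share with calls was 35.0% in these genes and 55.8% in the members, against 30.3% of all genes, and in WT sperm 0 of 20 had one, against 9 of 52 members. Across the 24 lists the median helicase member was occupied in 13, from 0 at Ddx58 to 20 at Ddx54, and the median protein-coding gene in 6.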

How the data were processed

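The deposited data are 24 interval lists of 34 ATAC-seq libraries, 1 subnucleosome and 1 nucleosome list for each of 12 groups. The submitters' processing notes name STAR 2.5.2a, MACS2 2.1.0.20140616 and the mm10 build, without their role. The combining of replicates is not described in the sources used here. Each interval carries a score that the authors deposited: its scale is not stated, it is 0 in SV129 subnucleosome lists, and peak names there in WT and cKO carry the number of 1 library only.

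Members, role groups and lists were chosen with earlier results of these data known. With Python 3.11.15, pandas 2.3.3 and numpy 2.4.6, a gene was called occupied if an interval lay at least 1 bp within 500 bp of an end of the RefSeq gene. Covered lengths used merged intervals and windows. The counting was checked on simulated intervals. Strand and sequence came from RefSeq promoters (GRCm38.p6), which hold 46 of 52 members. Motifs were chosen with the counts known.

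Named by rule were Ddx25, Ddx5, members with a peak at MS, RS and Sp of both intact backgrounds, the 5 longest in WT round spermatids with none in cKO and some in SV129, the 5 longest in cKO, members with a peak at ES, with calls in both intact sperm lists or with no interval, role examples by WT length, and members on X and Y. Wilson intervals cover counting error only. Depth is unknown. Alternatives were windows, overlaps, score and length limits, ends, shared windows and promoters. Members whose window is shared with another gene were 23 of 52.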

Additional observations from a re-analysis of the deposited data

How the results depend on the processing

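The 24 counts of occupied members, 1 per list, were recomputed under each alternative, and 155 of 196 values stayed within 1.5 times the count as reported. Windows of 250 and 1000 bp, overlaps of 50 or 75 bp and leaving out the most common score moved none beyond it. Using the 29 members that share no window counts fewer genes, and lowered 21 of the 24 counts, the 3 of ES peaks being 0 either way: subnucleosome peaks were then at 21, 26 and 25 in cKO, WT and SV129 at MS, 7, 25 and 24 at RS, and 1, 6 and 15 in sperm, and nucleosome calls at 23, 26 and 25 at MS, 18, 23 and 24 at RS, 11, 16 and 16 at ES, and 12, 4 and 3 in sperm. Counts of 29 were set against counts of 52 here, so a fall beyond 1.5 times was nearly fixed in advance. As shares, peaks at RS were at 24.1%, 86.2% and 82.8% of the 29, against 23.1%, 86.5% and 82.7% of the 52. In sperm they were at 3.45%, 20.7% and 51.7%, against 3.85%, 26.9% and 46.2%. With only the upper 50% of peaks by score, cKO had 25 at MS, 5 at RS and 1 in sperm, and WT 9 in sperm. The shares of all genes under this limit are not given here, so these falls cannot be read as particular to the members. With the longer list limited to the length of the shorter, WT had 7 at RS, where cKO had 12, and 9 in sperm. At the start end only, cKO sperm had 0 peaks, and ES calls were at 13 in cKO and 13 in SV129. These last come from the 46 members of known strand, which do not include Ddx39a and Dhx38.

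The remaining alternatives were chosen after seeing the data. Over any annotated promoter, a measure that leaves out Ddx39a and Dhx38, cKO sperm had 1 peak, against 3.44% of all genes. ES calls were then at 6, 15 and 9 of 46 members in cKO, WT and SV129 (13.0%, 32.6% and 19.6%), against 17.3%, 14.7% and 16.7% of all genes, so that the cKO share of the members was below that of all genes. Sperm calls were at 14 in cKO and 5 in WT, against 22.8% and 3.56%. Anywhere in the gene or its flanks, calls were at 44 members in cKO RS, against 62.5% of all genes, at 51, 50 and 47 at ES, against 77.0%, 78.4% and 77.5%, and at 44 in cKO sperm, against 69.9%. The cause of these shifts was not tested. No replicate could be left out, since each group has 1 list. No paired analysis was possible because the lists carry no values per library. Depth is unknown and limits every count.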
